A study of Homo sapiens with 29 samples.

Results

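The genes described here are 6 neutrophil-attracting CXC chemokines of the cluster on human chromosome 4: CXCL1, CXCL2, CXCL3, CXCL5, CXCL6 and CXCL8. All 6 carry the ELR motif (glutamate, leucine, arginine before the first cysteines), and they are among 28266 gene symbols in the count table. PPBP, a further ELR gene of the cluster, was not among the 6 and is given with the platelet chemokine genes below. All 6 passed the filter on low counts, so all were among the 13136 genes tested. RNA was sequenced from the IMR90 ER:RAS line, human lung fibroblasts that were infected with a retrovirus encoding an inducible ER:RAS fusion protein with RASG12V. In all libraries the cells carried this fusion and had been reverse transfected with an siRNA. DMSO_siNT cells received the solvent and a non-targeting siRNA. 4OHT_siNT cells received 4-hydroxytamoxifen (4OHT), which switches the fusion on and drives oncogene-induced senescence, with a non-targeting siRNA. 4OHT_siSMARCA4 cells received 4OHT with an siRNA that targets SMARCA4 (BRG1), an ATPase of SWI/SNF chromatin remodellers. Cells were labelled as collected on day 7, each group had 6 libraries, and each arm used 2 siRNAs, numbered 2 and 4. A library is named by its siRNA number and its set, a number from 1 to 3 with the letters V or VM, whose meaning is not stated.

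ELR-positive CXC chemokines are small secreted proteins that draw neutrophils out of the blood by binding the receptors CXCR1 and CXCR2. CXCL8 (interleukin-8) and CXCL6 bind both receptors, while CXCL1, CXCL2 and CXCL3 (the GRO chemokines) and CXCL5 act mainly through CXCR2. Their genes are classic targets of NF-kappaB downstream of interleukin-1 and TNF, and in senescent fibroblasts they belong to the senescence-associated secretory phenotype (SASP).

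In the GENCODE v44 annotation of GRCh38 the 6 genes lie within 358.7 kb, from base 73740519 to base 74099196 of chromosome 4, and the canonical transcript of each has 4 exons. CXCL8 (chr4:73740519-73743716), CXCL6 (chr4:73836640-73849064) and CXCL1 (chr4:73869393-73871308) are on the plus strand. CXCL5 (chr4:73995642-73998677), CXCL3 (chr4:74036589-74038807) and CXCL2 (chr4:74097040-74099196) are on the minus strand. The 140 bases before the transcription start of each are printed because they hold the one motif searched for that all 6 genes share. They are RefSeq sequences on GRCh38.p14, written 5′ to 3′ on the strand of the gene, and end at the base before the RefSeq start. In GENCODE the extents of CXCL8, CXCL6, CXCL3 and, by a single base, CXCL2 reach upstream of that start through other transcripts, so these stretches overlap the extents given above. The stretches are chr4:73869253-73869392, plus strand, for CXCL1, chr4:74099196-74099335, minus strand, for CXCL2, chr4:74038690-74038829, minus strand, for CXCL3, chr4:73998678-73998817, minus strand, for CXCL5, chr4:73836538-73836677, plus strand, for CXCL6, and chr4:73740429-73740568, plus strand, for CXCL8. Capitals mark the NF-kappaB letters GGAATTTCC in each and, in CXCL8, also the AP-1 letters TGANTCA.
CXCL1: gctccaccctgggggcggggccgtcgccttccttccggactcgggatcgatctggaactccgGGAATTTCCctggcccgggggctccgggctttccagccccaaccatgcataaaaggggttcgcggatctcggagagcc
CXCL2: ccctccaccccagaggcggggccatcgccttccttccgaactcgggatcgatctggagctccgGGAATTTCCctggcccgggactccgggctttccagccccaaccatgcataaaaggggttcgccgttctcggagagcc
CXCL3: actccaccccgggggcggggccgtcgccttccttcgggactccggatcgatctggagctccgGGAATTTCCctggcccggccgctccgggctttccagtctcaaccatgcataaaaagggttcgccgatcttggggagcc
CXCL5: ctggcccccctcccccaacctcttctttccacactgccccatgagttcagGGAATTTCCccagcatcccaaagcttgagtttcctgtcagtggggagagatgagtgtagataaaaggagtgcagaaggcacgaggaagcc
CXCL6: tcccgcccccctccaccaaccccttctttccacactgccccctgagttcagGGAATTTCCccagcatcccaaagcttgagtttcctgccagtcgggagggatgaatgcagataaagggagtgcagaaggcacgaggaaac
CXCL8: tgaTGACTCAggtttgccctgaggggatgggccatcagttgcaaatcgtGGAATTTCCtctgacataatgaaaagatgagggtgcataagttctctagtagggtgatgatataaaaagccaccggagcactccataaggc

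GGAATTTCC was present on the coding strand in all 6, and its first base lay at -78 in CXCL1, -77 in CXCL2, -78 in CXCL3, -90 in CXCL5, -89 in CXCL6 and -91 in CXCL8, counted from the RefSeq start. Over both strands of 300-base RefSeq promoters (250 bases before the start and 50 after it), 162 of 35116, or 0.461%, held these letters. TGANTCA was found only in CXCL8 (at -137) among the 6, and in 7.71% of all promoters. TATAAA was also found only in CXCL8 (at -31), against 11.5% of all promoters, and the C/EBP letters TTGCNNAA only in CXCL2 (at -188 on the opposite strand), against 10.5%. No matches overlapped in these genes. The printed stretches fell into families. In global alignments, CXCL1 was 91.5% identical to CXCL2 and 90.7% to CXCL3, and CXCL5 was 90.1% identical to CXCL6. CXCL8 was 43.5% to 49.7% identical to the other 5. Of 147 other genes whose promoter held the NF-kappaB letters, 55 were tested. Of these 55, 19 (34.5%) rose and 16 fell in 4OHT_siNT against DMSO_siNT, where 23.9% of all genes tested rose and 28.9% fell. Their median log2 fold change was -0.07, beside -0.05 over all genes tested.

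Libraries held 9657309 to 18039313 counts. Levels are counts-per-million values (CPM) with library sizes scaled by TMM in edgeR, and differences are log2 fold changes ± SE from its quasi-likelihood test with all 18 libraries in 1 fit. Genes with an adjusted p under 0.05 (Benjamini-Hochberg, over all genes tested) are those called. The labels do not say that libraries of a group came from separate cultures, so p-values measure the spread between these libraries, which may be technical. Sets were not balanced. All 6 4OHT_siNT libraries were VM, DMSO_siNT had 3 V and 3 VM, and 4OHT_siSMARCA4 had 3 V, 2 VM and 1 library called unlabelled. The columns of that library are named for siRNA 2 and set 1VM, but no sample title has that combination, so it was counted with neither V nor VM unless stated. One DMSO_siNT library, 4-2V, stood apart and had the fewest counts. SMARCA4 itself was at 189 to 232 CPM in DMSO_siNT, 275 to 330 CPM in 4OHT_siNT and 70.4 to 141 CPM in 4OHT_siSMARCA4. It differed by -1.61 ± 0.14 on the log2 scale between the 2 groups with 4OHT (edgeR, adjusted p = 1.3e-06), with no overlap between their libraries. Fibroblast markers summed to 12807 to 34687 CPM per library in DMSO_siNT, 19135 to 26273 CPM in 4OHT_siNT and 12655 to 17182 CPM in 4OHT_siSMARCA4. Of the 10, 1 rose and 5 fell in 4OHT_siNT against DMSO_siNT, and 6 fell and none rose in 4OHT_siSMARCA4 against 4OHT_siNT, with a median log2 fold change of -0.86 (COL1A1 -1.42, COL1A2 -1.46). Of 4 endothelial markers tested, 2 rose in the former and 1 in the latter comparison, and the 1 epithelial marker tested, CLDN4, fell in the former. In all libraries the 7 endothelial markers summed to 21.9 to 40.7 CPM and the 9 epithelial ones to 0.808 to 11.4 CPM. The part of these markers in the chemokine values was not tested. Of 10 leukocyte markers, none reached 10 counts in any library, they summed to 0.149 to 1.2 CPM, and CSF3R, the receptor for granulocyte colony-stimulating factor on neutrophils, was at 0 in all libraries. In bulk RNA, fewer cells of a type and less RNA per cell cannot be told apart.

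The first comparison, 4OHT_siNT against DMSO_siNT, asks what RAS-induced senescence did to these genes. All 6 rose. Mean levels in 4OHT_siNT ran from 6.99 ± 3.88 CPM for CXCL6 to 1755 ± 415 CPM for CXCL8 (SD, n = 6). Together they took 0.00111% ± 0.000926 (SD, n = 6) of all counts in DMSO_siNT and 0.234% ± 0.0544 in 4OHT_siNT. All 6 of 6 were called higher, where 23.9% of all genes tested were called higher and 52.8% were called in either direction. Every 4OHT_siNT library was above every DMSO_siNT library for all 6, which held for 17.0% of genes tested. CXCL1, CXCL3, CXCL5 and CXCL6 had median counts of 4.5, 2.5, 7 and 1 in DMSO_siNT and passed the filter only through 4OHT libraries. For them the filter favoured a higher call, so 6 of 6 is not a fair count beside these shares. With at least 10 counts asked in every library, CXCL2 and CXCL8 were tested and both were called higher, where 22.9% of genes tested were.

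CXCL8 had a lowest, median and highest value of 2.28, 4.65 and 23.7 CPM in DMSO_siNT and of 1304, 1672 and 2470 CPM in 4OHT_siNT. The groups did not overlap, and the lowest 4OHT_siNT library was 55.1 times the highest DMSO_siNT library, which was 4-2V. The log2 fold change was 7.89 ± 0.50 (edgeR, adjusted p = 1.7e-10), or 8.64 ± 0.28 without library 4-2V. By counts per library CXCL8 ranked between 6382 and 11553 among all genes in DMSO_siNT and between 30 and 68 in 4OHT_siNT.

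Of the GRO genes, CXCL1 had 0.0746, 0.347 and 3.59 CPM (lowest, median and highest) in DMSO_siNT and 153, 207 and 398 CPM in 4OHT_siNT. Its highest DMSO_siNT library was again 4-2V, and its log2 fold change was 8.09 ± 0.57, or 9.03 ± 0.48 without that library. CXCL3 went from 0.0714, 0.229 and 0.713 CPM to 84.6, 101 and 151 CPM. CXCL3 had a log2 fold change of 8.45 ± 0.39 (edgeR, adjusted p = 2.3e-12) and was the one member for which library 4-2V was not the highest of its group. Without that library CXCL3 was at 8.43, below CXCL1, CXCL5 (8.70) and CXCL8. CXCL2 differed from its relatives in starting level and in span, with 0.714, 1.53 and 3.47 CPM in DMSO_siNT and 26.7, 29.9 and 41.6 CPM in 4OHT_siNT. Its log2 fold change, 4.28 ± 0.28 (edgeR, adjusted p = 2.9e-10), was the smallest of the 6, and its 95% interval of 3.69 to 4.88 did not reach the intervals of CXCL1, CXCL3, CXCL5 and CXCL8.

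CXCL5 had 0.224, 0.557 and 2.39 CPM in DMSO_siNT and 177, 257 and 377 CPM in 4OHT_siNT, a log2 fold change of 8.26 ± 0.46 (edgeR, adjusted p = 2.3e-11). CXCL6, whose printed promoter stretch is close to that of CXCL5, was the lowest member in every group. It had 7 counts in all of DMSO_siNT, 4 of them in library 4-2V and 0 in 2 libraries, and 3.34, 6.12 and 14.1 CPM in 4OHT_siNT. With 585 counts in 4OHT_siNT the ratio of its rates was 76.5, with an exact 95% interval of 36.9 to 191 that covers counting error only. The fitted log2 fold change was 6.08 ± 0.67 (edgeR, adjusted p = 3.1e-07).

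The difference held within VM libraries (3 DMSO_siNT against 6 4OHT_siNT), where the 6 log2 fold changes were 9.82 for CXCL1, 4.53 for CXCL2, 9.41 for CXCL3, 9.89 for CXCL5, 7.71 for CXCL6 and 8.86 for CXCL8, all called. In these libraries 25.6% of genes tested were called higher and 53.5% in either direction, with the same limit from the filter. CXCL1, CXCL5 and CXCL6 had larger values there than over all libraries, as did CXCL2, CXCL3 and CXCL8.

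**Figure D1:**
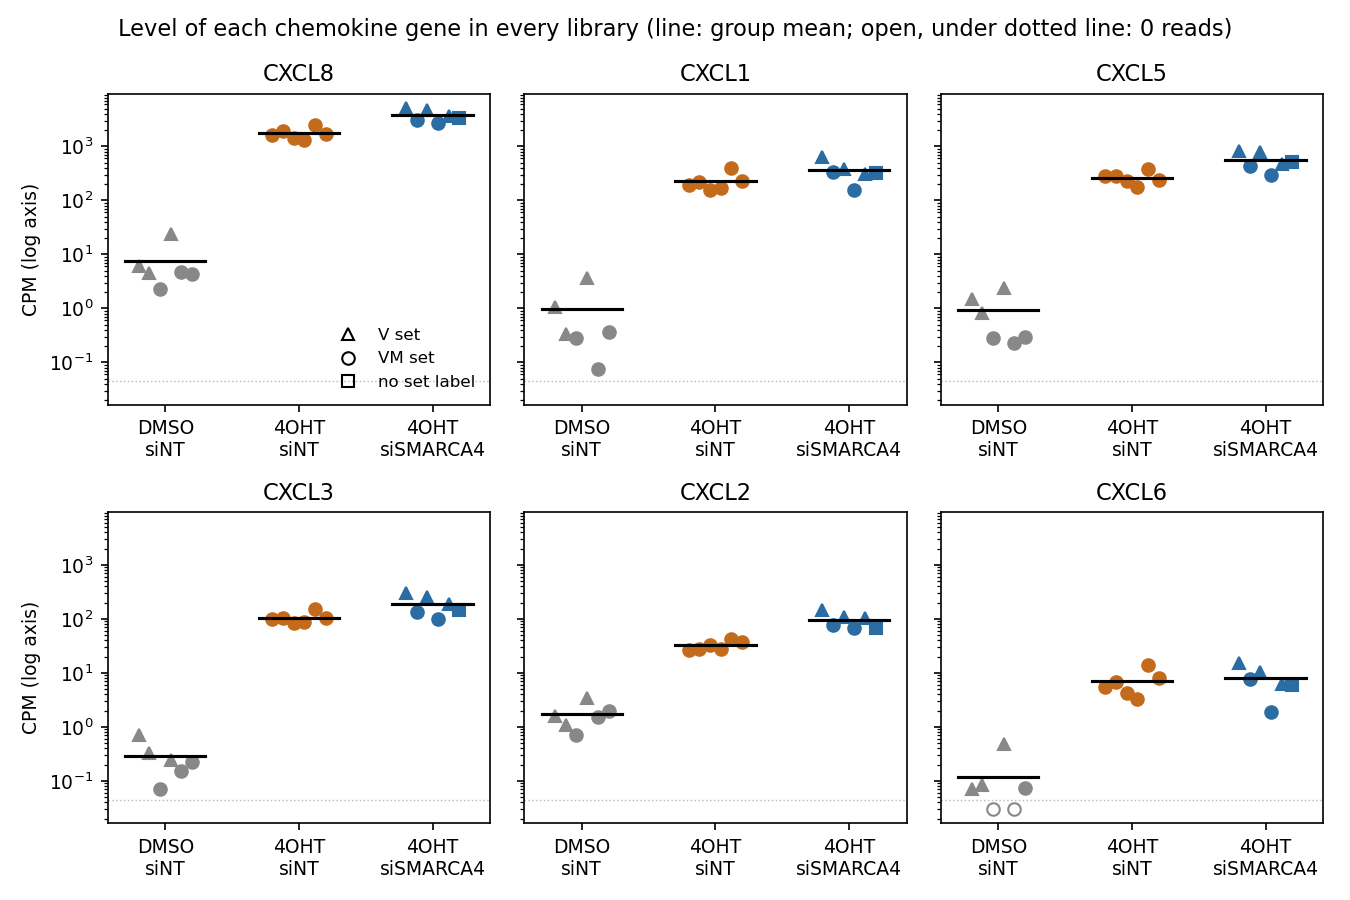
CPM of each of the 6 genes in every library on a log axis, by group. Triangles are V libraries, circles VM libraries and the square the unlabelled library, lines are group means, and open circles under the dotted line are 2 libraries with 0 reads of CXCL6. The DMSO_siNT points lie below all points of both 4OHT groups in every panel, and in 4OHT_siSMARCA4 the 3 triangles lie above the other 3 points for CXCL2, CXCL3 and CXCL8.

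Levels of different genes were compared per kb of canonical transcript. In 4OHT_siNT the order of mean levels was CXCL8 (1069 ± 253 CPM per kb, SD, n = 6), CXCL1 (194 ± 74.8), CXCL5 (108 ± 27.7), CXCL3 (97.7 ± 22.5), CXCL2 (28.9 ± 5.55) and CXCL6 (4.55 ± 2.53). CXCL1 and CXCL5 overlapped over libraries, as did CXCL5 and CXCL3, and the other neighbours in the order did not. CXCL8 made up 71.3% ± 1.67 of the summed per-length level of the 6 genes. In DMSO_siNT the order was CXCL8 (4.64 CPM per kb), CXCL2 (1.54), CXCL1 (0.81), CXCL5 (0.377), CXCL3 (0.267) and CXCL6 (0.0764), and every neighbouring pair overlapped over libraries. CXCL8 held 50.6% to 65.2% of the per-length sum in each DMSO_siNT library. CXCL2 held 24% ± 7.58 of the sum in DMSO_siNT and 1.97% ± 0.349 in 4OHT_siNT.

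The second comparison, 4OHT_siSMARCA4 against 4OHT_siNT, asks what lowering SMARCA4 did to the chemokine genes of senescent cells. CXCL2, CXCL5 and CXCL3 rose, by 1.57, 1.08 and 0.84 on the log2 scale. That is 3 of 6, where 4.99% of all genes tested were called higher, 5.65% lower and 10.6% in either direction. CXCL8 had a value as large as that of CXCL5 but did not pass the threshold, and CXCL1 and CXCL6 were further from it. The 6 genes took 0.499% ± 0.138 of all counts in 4OHT_siSMARCA4. The median of the 6 log2 fold changes was 0.96, beside 0.01 over all genes tested. For 2 of the 6, CXCL2 and CXCL8, every 4OHT_siSMARCA4 library was above every 4OHT_siNT library, which held for 5.12% of genes tested.

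CXCL2 had 69, 90.9 and 147 CPM (lowest, median and highest) in 4OHT_siSMARCA4, against 26.7, 29.9 and 41.6 CPM in 4OHT_siNT. Its lowest library with the knockdown was 1.66 times the highest without it. The log2 fold change was 1.57 ± 0.23 (edgeR, adjusted p = 0.000279), a 2.97-fold difference. CXCL2 was the smallest mover of the cluster in the first comparison and had the largest value in this one. The comparisons share the 4OHT_siNT libraries.

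CXCL8 had 2700, 3460 and 5228 CPM in 4OHT_siSMARCA4, against 1304, 1672 and 2470 CPM in 4OHT_siNT. The groups were adjacent without overlap, the lowest library with the knockdown being 1.09 times the highest without it. The log2 fold change was 1.10 ± 0.37 with a 95% interval of 0.32 to 1.88 (edgeR, adjusted p = 0.0653). That p depended on DMSO_siNT libraries, which share the estimate of the spread. With the 2 groups compared alone it was 0.000311 (edgeR), and with library DMSO_siNT 4-2V left out it was 0.000276 (edgeR), at log2 fold changes of 1.10 and 1.09. It also passed without DMSO_siNT 2-2VM, at 0.0413 (edgeR), and in none of the fits without 1 library of the compared groups. CXCL8 ranked between 6 and 21 among all genes by counts in 4OHT_siSMARCA4 libraries.

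CXCL5 had 294, 493 and 820 CPM in 4OHT_siSMARCA4, and 5 of 6 libraries were above the highest 4OHT_siNT library (377 CPM). Its log2 fold change was 1.08 ± 0.31 (edgeR, adjusted p = 0.0322). CXCL3 had 98.6, 170 and 297 CPM, and the 3 libraries above the highest 4OHT_siNT value (151 CPM) were the 3 V libraries. CXCL3 had a log2 fold change of 0.84 ± 0.24 (edgeR, adjusted p = 0.0295). Both calls were lost without any 1 of 4OHT_siNT 2-1VM, 2-2VM, 2-3VM, 4-1VM or 4-3VM or of 4OHT_siSMARCA4 2-3V or 4-2V, and that of CXCL5 also without the unlabelled library. Over the 18 fits without 1 library, the log2 fold change was 0.93 to 1.20 for CXCL5 and 0.67 to 0.97 for CXCL3, with adjusted p (edgeR) up to 0.0853 and 0.0878.

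CXCL1 had 158, 332 and 643 CPM in 4OHT_siSMARCA4, a spread of 4.07-fold between libraries, and 1 of 6 libraries, V set, was above the highest 4OHT_siNT library (398 CPM). The log2 fold change of CXCL1 was 0.66 ± 0.39 with a 95% interval of -0.15 to 1.47 (edgeR, adjusted p = 0.313). CXCL6 had 1.9, 7 and 15 CPM, against 3.34, 6.12 and 14.1 CPM in 4OHT_siNT, so the groups lay over each other. Its log2 fold change was 0.18 ± 0.40 with a 95% interval of -0.66 to 1.02 (edgeR, adjusted p = 0.834).

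Set letters moved with this comparison, because 4OHT_siNT had no V library. Within 4OHT_siSMARCA4, the V libraries had the higher mean for all 6 genes. CXCL3 was at 191 to 297 CPM in the 3 V libraries and at 98.6 and 137 CPM in the 2 VM libraries, and CXCL8 at 3618 to 5228 CPM against 2700 and 3076 CPM. The V over VM log2 differences in 4OHT_siSMARCA4 were 1.07 ± 0.27 for CXCL3 (edgeR, adjusted p = 0.159), 1.14 ± 0.61 for CXCL6, 0.91 ± 0.32 for CXCL5, 0.84 ± 0.52 for CXCL1, 0.69 ± 0.32 for CXCL2 and 0.64 ± 0.48 for CXCL8. None of the 6 was called, where 0.101% of all genes were, while 3 of the 6 had an unadjusted p under 0.05 and DESeq2 called 1. In DMSO_siNT the same difference was 2.57 ± 0.89 for CXCL1, 2.45 ± 1.85 for CXCL6, 2.44 ± 0.53 for CXCL5 (edgeR, adjusted p = 0.0594), 1.57 ± 0.64 for CXCL3, 1.54 ± 0.48 for CXCL8 and 0.45 ± 0.41 for CXCL2. None of these was called by edgeR either, where 0.324% of all genes were, while 4 of the 6 had an unadjusted p under 0.05 and DESeq2 called 3. Both shares of all genes are for edgeR calls. The share at an unadjusted p under 0.05, or called by DESeq2, was not computed for V over VM in either group. SMARCA4 was at 92.7 to 141 CPM in the V libraries of 4OHT_siSMARCA4 and at 70.4 and 87 CPM in its VM libraries, a log2 difference of 0.59 ± 0.17 (edgeR, adjusted p = 0.247). The part of set letters in the knockdown values was not tested, since V libraries of 4OHT_siNT were not analysed here.

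Within VM libraries alone (2 against 6), the knockdown log2 fold changes were 1.18 ± 0.18 for CXCL2 (edgeR, adjusted p = 0.000453) and 0.70 ± 0.20 for CXCL8 (edgeR, adjusted p = 0.0249), both called, so 2 of 6 were called where 8.76% of genes tested were called higher and 21.0% in either direction. CXCL5 was at 0.47 ± 0.21 (adjusted p = 0.123) and CXCL3 at 0.15 ± 0.19 (adjusted p = 0.614), so neither call of the full comparison held there. CXCL1 was at 0.10 ± 0.31 and CXCL6 at -0.56 ± 0.51. With the unlabelled library added to the VM libraries, CXCL2, CXCL8 and CXCL5 were called (30.4% of genes tested called), with CXCL5 at 0.65 ± 0.19 (edgeR, adjusted p = 0.0159). CXCL2 was called in each of these 3 fits. With the set label as a block, none of the 6 was called, with CXCL2 at 1.06 (edgeR, adjusted p = 0.0904), where 1.77% of all genes were.

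**Figure D2:**
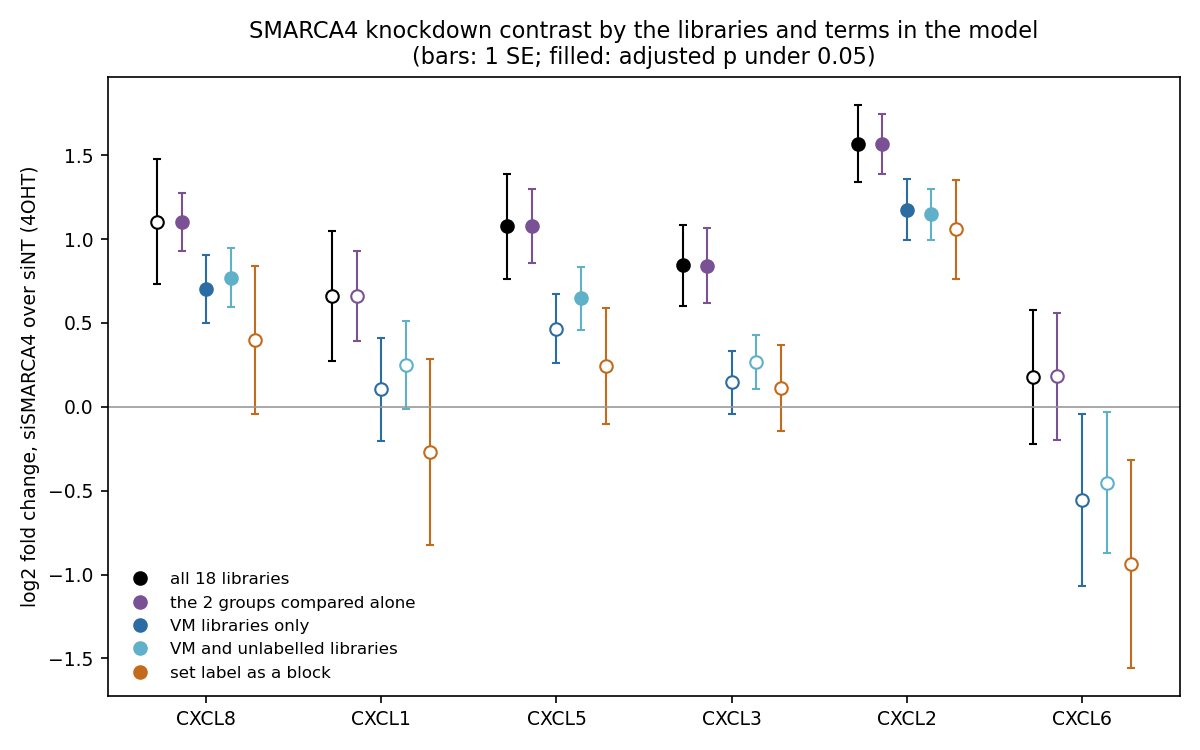
Log2 fold change of 4OHT_siSMARCA4 over 4OHT_siNT for each of the 6 genes, with 1 SE, from the fit of all libraries and from 4 other fits. Filled points have an adjusted p under 0.05. The value of CXCL2 lies above 1 in all 5 fits, while CXCL1 and CXCL6 have values on both sides of 0.

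The siRNAs numbered 2 and 4 were compared with 3 libraries each. In 4OHT_siSMARCA4, CXCL8 was at 3868 ± 1183 CPM (SD, n = 3) with siRNA 2 and 3672 ± 999 CPM with siRNA 4, and CXCL2 at 97.9 ± 42.5 and 93 ± 20.8 CPM. The widest split there was CXCL1, at 436 ± 179 and 285 ± 117 CPM. None of the 6 was called between siRNA numbers in DMSO_siNT (0.0512% of all genes called), 4OHT_siNT (0.0732%) or 4OHT_siSMARCA4 (0.00732%), nor for the difference between their knockdown effects (0.0146%). That difference set siSMARCA4 siRNA 2 against siNT 2, and siSMARCA4 siRNA 4 against siNT 4. It therefore also holds any difference between the 2 non-targeting siRNAs. Taken as siRNA 2 minus siRNA 4, it had intervals from -0.42 to 2.67 for CXCL1 and from -0.45 to 1.24 for CXCL2 on the log2 scale. At an unadjusted p under 0.05, CXCL8 and CXCL2 passed between siRNA numbers in DMSO_siNT, and no member passed in the other 3 contrasts. The share of all genes at that unadjusted threshold was not computed.

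The proportions of the 5 other genes to CXCL8 were compared between the 4OHT groups. All 5 ratios share CXCL8, whose own log2 fold change was 1.10, so they are not independent of each other. A gene that rose less than CXCL8 has a lower ratio to it whether or not its own level changed. The lower ratios of CXCL1, CXCL3 and CXCL6 below therefore say only that these genes rose less than CXCL8. The share of all genes whose ratio to CXCL8 differed was not computed. The log2 ratio of each gene to CXCL8 within a library was compared between the 4OHT groups with a two-sided exact permutation test, chosen after seeing the data, with p adjusted over 6 tests, of which 5 are quoted. The smallest possible p is 0.00216. CXCL2 was at 1.42% to 2.21% of CXCL8 in 4OHT_siNT and at 2.09% to 2.87% in 4OHT_siSMARCA4, a log2 ratio higher by 0.44 (exact p = 0.0108, adjusted 0.0162), with 5 of 6 libraries above all of 4OHT_siNT. CXCL6 moved the other way, from 0.256% to 0.572% in 4OHT_siNT to 0.0704% to 0.288%, and its log2 ratio fell by 1.00 (exact p = 0.00433, adjusted 0.013). CXCL1 went from 10.5% to 16.1% of CXCL8 to 5.85% to 12.3%, and its log2 ratio fell by 0.48 (exact p = 0.0173, adjusted 0.0208). For CXCL3 the log2 ratio fell by 0.33 (exact p = 0.00866, adjusted 0.0162). CXCL5 kept to 13.6% to 17.3% and 10.9% to 16.6% of CXCL8, a log2 difference of -0.07 (exact p = 0.569). In VM libraries alone the log2 differences were 0.46 for CXCL2, -0.66 for CXCL1, -0.58 for CXCL3, -1.46 for CXCL6 and -0.26 for CXCL5, of the same sign as over all libraries. Between DMSO_siNT and 4OHT_siNT, CXCL2 went from 14.6% to 45.8% of CXCL8 to 1.42% to 2.21%, a log2 difference of -3.87. That ratio was looked at because of the small fold change of CXCL2 and is given as a description.

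**Figure D3:**
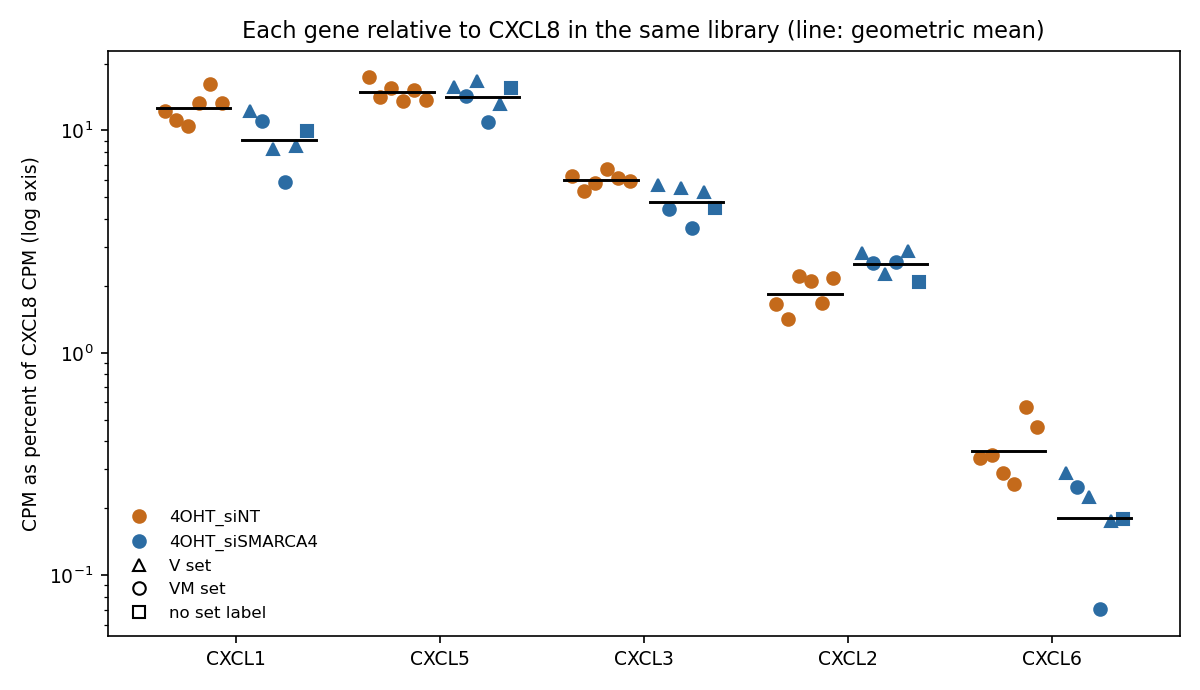
CPM of 5 genes as a percent of CXCL8 CPM in the same library, on a log axis, for the 2 groups with 4OHT. Lines are geometric means, and triangles, circles and the square are V, VM and unlabelled libraries. CXCL2 points of 4OHT_siSMARCA4 lie above most 4OHT_siNT points, and those of CXCL1, CXCL3 and CXCL6 lie below most of them.

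Per kb of transcript, the order of means in 4OHT_siSMARCA4 was that of 4OHT_siNT: CXCL8 (2296 ± 600 CPM per kb, SD, n = 6), CXCL1 (307 ± 135), CXCL5 (227 ± 84.4), CXCL3 (175 ± 70.9), CXCL2 (85.6 ± 27) and CXCL6 (5.14 ± 2.92). CXCL8 and CXCL1 did not overlap over libraries, nor did CXCL2 and CXCL6, and the neighbours between them did. CXCL8 made up 74.7% ± 2.96 of the per-length sum. The canonical transcripts of the 3 GRO genes were identical over a full read length in a small part only. Mismatches, shorter reads and other transcripts were not checked, and the counting program is not given. Of 72-base windows, the read length of the study, 3.07% of those of CXCL2 were identical to one in CXCL1 or CXCL3, 2.59% of those of CXCL3 to one in CXCL2 and 0.544% of those of CXCL1 to one in CXCL2. The other 3 genes shared none. With counts of the 3 GRO genes summed, the log2 fold change was 7.01 ± 0.43 in the first comparison and 0.82 ± 0.32 in the second (edgeR, adjusted p = 0.113).

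The third comparison, 4OHT_siSMARCA4 against DMSO_siNT, shares its libraries with the other comparisons and gives the whole span. All 6 of 6 rose, where 23.3% of genes tested were called higher and 50.5% in either direction, and every library was above every DMSO_siNT library for all 6 (14.3% of genes tested). The limit from the filter given for the first comparison holds here too. The log2 fold changes were 9.34 ± 0.47 for CXCL5, 9.30 ± 0.39 for CXCL3, 8.99 ± 0.53 for CXCL8, 8.75 ± 0.58 for CXCL1, 6.26 ± 0.67 for CXCL6 and 5.85 ± 0.30 for CXCL2. In V libraries alone (3 against 3) they were 8.81 for CXCL5, 9.08 for CXCL3, 8.64 for CXCL8, 8.15 for CXCL1, 5.82 for CXCL6 and 5.91 for CXCL2, all called. There, 8.37% of genes tested were called higher and 21.1% in either direction.

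Receptors and the remaining chemokines of the cluster were barely detected. CXCR1 and CXCR2, the receptors of the 6 ligands, had 2 counts and 1 count at most in any library, and ACKR1, a scavenging receptor, had none. The ELR gene PPBP and the platelet chemokine genes PF4 and PF4V1 lie in the same cluster. They had at most 3, 8 and 5 counts in a library, and none of these 6 receptor and chemokine genes passed the filter. Of 8 other CXC chemokines 2 were tested. CXCL10, an interferon-induced chemokine for T and NK cells, was at 1.29 ± 2.12 CPM in DMSO_siNT, 8.86 ± 1.60 CPM in 4OHT_siNT and 43 ± 10.9 CPM in 4OHT_siSMARCA4, and rose by 2.28 ± 0.46 with the knockdown. CXCL12, a homeostatic chemokine of fibroblasts, fell by 6.83 on the log2 scale in the first comparison, from 16.2 ± 1.95 to 0.134 ± 0.108 CPM. Of 16 other protein-coding genes within 1 Mb of the cluster, 6 were tested. The EGF receptor ligands EREG (3.57 ± 0.14) and AREG (6.35 ± 0.26) and PARM1 (1.96 ± 0.47) rose in the first comparison, and COX18 fell. In the second comparison PARM1 fell by 2.47 on the log2 scale, and EREG (0.33 ± 0.13) and AREG (-0.28 ± 0.20) did not pass.

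Genes that act upstream of the chemokines were taken from lists, whose counts stand beside 23.9% higher and 28.9% lower among all genes tested in the first comparison and 4.99% and 5.65% in the second. Of 9 inducing cytokines 4 were tested. IL1A (8.89 ± 0.34) and IL1B (8.88 ± 0.73), the interleukin-1 ligands, and IL6 (3.19 ± 0.32) rose in the first comparison and IL17D fell. In the second comparison IL6 rose by 1.48 ± 0.29, while IL1A was at 0.51 ± 0.19 and IL1B at 0.18 ± 0.50, neither called. TNF had at most 2 counts in a library. Of 14 NF-kappaB factors, kinases and inhibitors, 10 rose in the first comparison and none fell, with a median of 0.73. The largest of these were the feedback inhibitor TNFAIP3 (2.47 ± 0.25), NFKBIZ (1.70 ± 0.15), which encodes a nuclear co-activator, and the subunits NFKB2 (1.60 ± 0.19) and RELB (1.59 ± 0.15). In the second comparison 2 of the 14 rose, RELB (0.59 ± 0.15) and the kinase gene CHUK (0.37 ± 0.09), with a median of 0.33. Of 17 receptors and adaptors, 3 rose and 2 fell in the first comparison, and in the second 2 rose, the interleukin-1 receptor IL1R1 (0.95 ± 0.21) and the kinase IRAK2 (0.54 ± 0.10). Of 11 AP-1 and C/EBP factors tested, 5 rose and 3 fell in the first comparison, and CEBPD (1.07 ± 0.29) and CEBPG (0.49 ± 0.12) rose in the second. Of 10 genes listed for decay or stability of AU-rich mRNAs, such as those of these chemokines, 2 rose and 4 fell in the first comparison and none was called in the second. The list mixes genes for decay and for stability, so its counts give no direction for decay. ZC3H12A, an RNase that feeds back on inflammatory mRNAs, rose by 3.81 ± 0.28, and ZFP36 and ZFP36L2 fell by 1.14 and 1.97 on the log2 scale. In VM libraries alone, the upstream genes called higher with the knockdown were IL6 (1.20 ± 0.21), IL1R1 (1.21 ± 0.12), IRAK2 (0.53 ± 0.14), RELB (0.77 ± 0.15), NFKB2 (0.58 ± 0.12), NFKBIB (0.55 ± 0.12), CHUK (0.39 ± 0.11), NFKBIA (0.36 ± 0.12), CEBPD (1.31 ± 0.21), CEBPB (0.48 ± 0.12) and JUND (0.40 ± 0.10). Those called lower were the adaptor gene MYD88 (-0.74 ± 0.14), IL1B (-0.66 ± 0.19), ZFP36 (-0.62 ± 0.16) and JUN (-0.59 ± 0.19). CEBPG (0.44 ± 0.16) was not called there, and CXCL10 rose by 2.28 ± 0.19. These VM calls stand beside 8.76% of all genes tested called higher there and 21.0% in either direction.

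**Figure D4:**
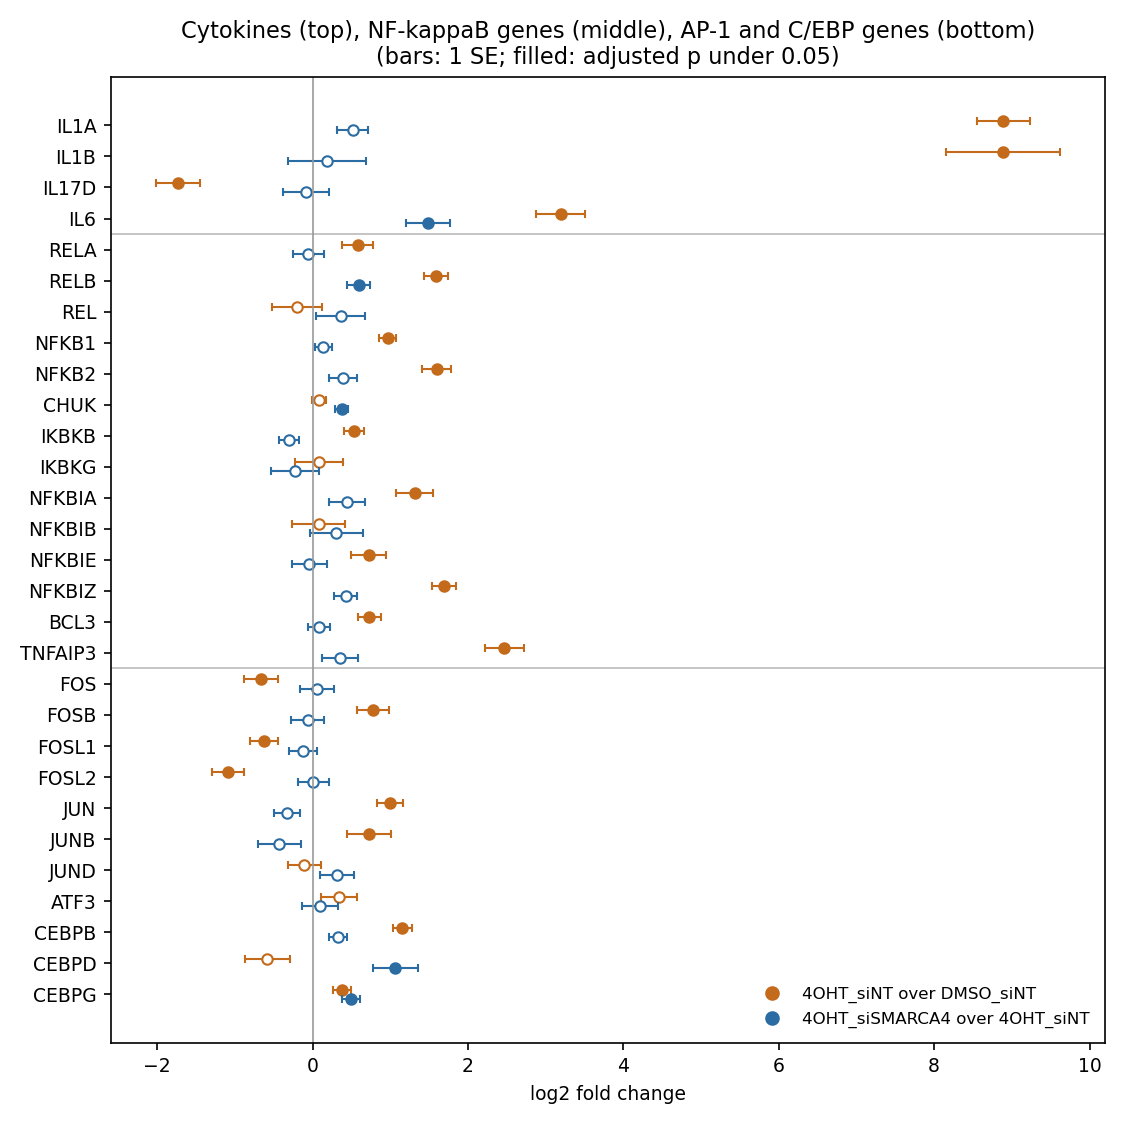
Log2 fold changes with 1 SE of the tested inducing cytokines, NF-kappaB genes and AP-1 and C/EBP genes in 4OHT_siNT over DMSO_siNT and in 4OHT_siSMARCA4 over 4OHT_siNT. Filled points have an adjusted p under 0.05. IL1A and IL1B lie at 8.89 and 8.88 in the first comparison and below 1 in the second.

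Within groups the 6 genes varied together. Over 18 libraries, the correlation of deviations of log2 CPM from the group means was between 0.479 (CXCL3 with CXCL8) and 0.906 (CXCL1 with CXCL5) for the 15 pairs. Library DMSO_siNT 4-2V had the highest deviation for 5 of the 6. CXCL8 deviated by 2.04 there and by -1.25 to 0.52 in the other libraries, while CXCL3 deviated by -0.03. Without it the 15 correlations were 0.38 (CXCL2 with CXCL5) to 0.922 (CXCL3 with CXCL5), and that of CXCL3 with CXCL8 was 0.887. With the 6 members left out of the ranking, 11804 of the genes tested had a mean log2 CPM over 1. Among these 11804, those most like CXCL8 over the 18 libraries were RARRES2 (r = 0.94), PSMB8 (0.937), ANKRD36 (0.929), TST (0.923) and FRG1BP (0.923). For CXCL5 they were DENND2A (0.922), BDKRB2 (0.91), DIS3L (0.898), C2orf68 (0.891) and PTX3 (0.891). RARRES2 encodes the chemoattractant chemerin, PSMB8 a subunit of the immunoproteasome, BDKRB2 a bradykinin receptor and PTX3 a secreted pentraxin. Without library 4-2V, PSMB8 (0.841) and RARRES2 (0.807) were still among the first 5 for CXCL8, and DENND2A (0.877) and BDKRB2 (0.861) for CXCL5. The points share libraries, depth and set letters, so these are descriptions.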

How the data were processed

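The 6 genes and the lists of other genes were chosen with earlier results of these data known. Per the labels and the study's methods, directional libraries of poly(A)-selected RNA were sequenced as 72-base single-end reads, and the submitters' processing notes name STAR 2.7.8a, DESeq2 1.36.0 and hg38. The annotation, the counting program and its strand setting are not given in the sources used here. The deposited table holds raw counts, not normalized by the authors, for each gene symbol in 36 columns. The 2 lanes of a library were summed into 18 libraries. Of 29 labelled samples 17 matched a column and 12 were not analysed here. The 2 lane columns of 1 library, named for siRNA 2 and set 1VM, matched the group 4OHT_siSMARCA4 but no sample title. Genes were kept with filterByExpr (minimum count 10), which left 13136 genes with 99.9% of counts, and TMM-scaled libraries were tested by quasi-likelihood in edgeR 4.0.16 (R 4.3.3) without a covariate. Standard errors came from the F statistic. The common biological coefficient of variation was 23.3%, and no pair of libraries agreed within sampling noise. CPM values are on the TMM scale. Log2 CPM for correlations used a prior count of 2. DESeq2 1.42.0, other scalings, filters, subsets of libraries, a block on sets and leaving out each library were run as alternatives. The VM libraries with the unlabelled one, V libraries alone, VM libraries for list genes, correlations without 1 library, ratios to CXCL8 and leaving out libraries of the group not compared were chosen after seeing the data. Both count tests were first tested on simulated counts. Genes were named by rule: the 6 chemokines, SMARCA4, those genes of the lists needed in a sentence, and the 5 genes other than members most correlated with CXCL8 and with CXCL5. Gene positions and transcript lengths are from GENCODE v44, and promoters from RefSeq, in which all 6 genes matched.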

Additional observations from a re-analysis of the deposited data

Results flagged for a closer look

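In 18 sets of 6 libraries (6 genes in 3 groups), the gap of the highest or lowest library to its nearest neighbour was divided by the range of the group. By chance about 0.9 of the 18 sets would pass the 95% limit for this ratio, and 2 did. CXCL3 in 4OHT_siNT reached 0.644, because library 4-2VM stood at 151 CPM against 84.6 to 104 CPM in the other 5. CXCL6 in DMSO_siNT reached 0.695, because library 4-2V had 4 of the 7 counts of its group.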

How the results depend on the processing

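All 6 genes were called higher in 4OHT_siNT and in 4OHT_siSMARCA4 against DMSO_siNT in every fit run in which they were tested, including those without 1 library (6 to 6 called). With at least 10 counts asked in every library, 2 of the 6, CXCL2 and CXCL8, were tested. Of these, 2, 1 and 2 were called in the 3 comparisons, where 52.2%, 9.53% and 49.3% of genes tested were called. For 4OHT_siSMARCA4 against 4OHT_siNT, 3 were called over all libraries. The count was 1 at adjusted p under 0.01, where the share of all genes was not computed. It was also 1 with siNT 4 alone (4.08% of genes called), with siSMARCA4 siRNA 2 alone (8.62%) and with its siRNA 4 alone (1.86%). It was 4 with the 2 groups alone (26.9% of genes called), with DESeq2 (12.9%), with siNT 2 alone (15.7%) and with total counts as scaling (11.0%). Leaving out 1 library gave 1 to 4, where 6.93% to 24.6% of genes tested were called. It was 1 without 4OHT_siNT 2-1VM, 2-2VM, 2-3VM, 4-1VM or 4-3VM, or without 4OHT_siSMARCA4 2-3V or 4-2V, and CXCL2 was called in all 18 of these fits. Deviations of libraries with one set label correlated at -0.23 to 0.27, positive for set 3VM (0.15 to 0.27) and negative for 2VM and 2V. Each value rests on few libraries, so whether the label pairs libraries cannot be told from them. With the set label as a block, 0 of the 6 were called in this comparison (1.77% of all genes called), CXCL2 was at 1.06 (adjusted p = 0.0904), CXCL8 at 0.40, CXCL5 at 0.24 and CXCL3 at 0.11, and the signs of CXCL1 (-0.27) and CXCL6 (-0.93) were negative. CXCL6 was also negative in VM libraries (-0.56), with the unlabelled library added (-0.45), with siNT 4 alone (-0.12), with siSMARCA4 siRNA 4 alone (-0.15) and without 4OHT_siSMARCA4 2-3V (-0.10, the lowest of -0.10 to 0.50 over fits without 1 library). The block changed no call in the comparisons with DMSO_siNT. For V over VM the share of all genes that DESeq2 called was not computed. DESeq2 called 3 of the 6 for V over VM in DMSO_siNT and 1 in 4OHT_siSMARCA4, where edgeR called 0, and gave CXCL5 as -0.094 for siRNA 2 over 4 in DMSO_siNT. The causes of these differences were not tested. Other scalings moved the median of all genes by less than 0.1 (log2). Levels of CXCL6 in DMSO_siNT rest on 7 counts, which limits its fold change.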
